A study of Mus musculus with 45 samples.

Results

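Cd93, Thbd, Slpi, Epcam, Gpx3 and Cd38 are grouped here as markers of late plasma cells, the antibody-secreting end stage of the B cell lineage. Among them, Cd38 had its highest level in B cells before culture. These 6 genes, of 28196 in the deposited tables, were taken by symbol. They were chosen by their levels at late days of culture and by how far those levels differed in cells with a deletion in Prdm1. Their differences between days and between genotypes are therefore given as values without a test. Differences between culture systems were not the ground of that choice and were tested. They rest on the same libraries, and earlier results of these data were known, so these tests are not fully independent of the choice. Changes of these differences between days were tested too, and they hold the steps between days that entered the choice. The RNA came from splenic B2 cells of C57BL/6 mice, in 45 libraries that form 15 groups of 3. Wild type groups were uncultured B cells at day 0, TLR and BCR cultures at days 4, 7 and 10, and LPS cultures at days 4 and 7. Mice with the Prdm1Δex1A allele, called dEx1A here, gave all 3 kinds of culture, each at days 4 and 7. TLR cultures received LPS at 5 µg/mL on irradiated L cell feeders carrying CD40L, plus 50 ng/mL of both IL-4 and IL-5. BCR cultures differed in receiving F(ab')2 antibody to IgM and IgG at 12 µg/mL in place of LPS. In both, feeders were left behind at day 2. The medium from day 4 onward had added lipids and amino acids, 100 ng/mL of APRIL and 10 ng/mL of IL-6. Not given in the sources used here were the makeup of the LPS culture, the zygosity of the deletion and whether each replicate was its own animal, so p-values measure the spread between these libraries, which may be technical. The dEx1A mice and the wild type mice of the LPS groups were labelled as females of 9 weeks, and all remaining mice as males of 7 weeks. Day 10 cells carry the label plasma cell, and those of days 4 and 7 plasmablast. Cells of each culture were measured in bulk, so fewer cells of a type and less RNA per cell cannot be told apart.

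Prdm1 encodes Blimp-1, a zinc finger repressor that shuts off B cell genes and drives the plasma cell program, and exon 1A is one of its alternative first exons. CD93 is a surface receptor with a C-type lectin domain, known on early B cells and needed for the upkeep of plasma cells in bone marrow. Thrombomodulin, from Thbd, belongs to the same group of C-type lectin receptors and is the cofactor with which thrombin activates protein C on blood vessels. SLPI is a secreted inhibitor of neutrophil elastase, and GPX3 is the secreted, selenium-containing glutathione peroxidase of plasma. EpCAM is a homophilic adhesion protein best known from epithelium. CD38 is an ectoenzyme that consumes NAD, high on mouse naive B cells and on human plasma cells.

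On GRCm38, in the GENCODE M21 annotation, Cd93 (ENSMUSG00000027435.8) spans chr2:148436640-148443563 and Thbd (ENSMUSG00000074743.4) spans chr2:148404466-148408188, both on the minus strand. These related genes are neighbours, with 28451 bases between them. Slpi (ENSMUSG00000017002.14) lies at chr2:164354070-164389095 on the minus strand, Epcam (ENSMUSG00000045394.9) at chr17:87635979-87651129, Gpx3 (ENSMUSG00000018339.11) at chr11:54902453-54910377 and Cd38 (ENSMUSG00000029084.5) at chr5:43868553-43912375, these last 3 on the plus strand. Cd38 sits 24566 bases from Bst1, its paralogue. In LPS cultures at day 7 Slpi was lower and Epcam higher in dEx1A than in wild type cells, and the 250 bases before their RefSeq start sites (GRCm38.p6) are shown for that contrast. Capitals mark GTGAAA, the core of the site that Blimp-1 binds, and the E-box letters CAGGTG and CACGTG, on either strand.
Slpi, chr2:164356508-164356757, minus strand: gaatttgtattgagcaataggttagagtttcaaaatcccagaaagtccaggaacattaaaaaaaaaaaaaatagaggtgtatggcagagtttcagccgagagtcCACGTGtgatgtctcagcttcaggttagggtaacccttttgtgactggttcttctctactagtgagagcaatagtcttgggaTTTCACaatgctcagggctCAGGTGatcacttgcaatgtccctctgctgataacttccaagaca
Epcam, chr17:87635729-87635978, plus strand: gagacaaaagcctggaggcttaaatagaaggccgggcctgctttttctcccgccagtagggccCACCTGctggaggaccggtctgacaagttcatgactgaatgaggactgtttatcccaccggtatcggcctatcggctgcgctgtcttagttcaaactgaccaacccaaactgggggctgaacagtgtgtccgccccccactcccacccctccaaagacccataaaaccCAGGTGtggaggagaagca

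The Slpi window lies inside the GENCODE gene span, since a longer transcript starts further upstream. It held GTGAAA on the strand opposite to the gene at positions -64 to -59 from the start, CACGTG at -146 to -141 and CAGGTG at -45 to -40. The Epcam window held CAGGTG at -19 to -14 and, on the other strand, at -187 to -182, with no GTGAAA. Of the other windows in the RefSeq table, that of Cd38 held GTGAAA at -19 to -14 and that of Gpx3 held none of the motifs. The longer Blimp-1 string GTGAAAG, which always overlaps GTGAAA, and TATAAA matched in none of these 4 windows. Over all 32851 windows of the table, searched on both strands, GTGAAA occurred in 11.1%, GTGAAAG in 3.6%, CACGTG in 6.0%, CAGGTG in 17.2% and TATAAA in 12.4%. A match is a description of the letters and not a bound site.

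The deposited scale is log2 after the authors' variance stabilisation, on which a gene without reads sits at 3.04. Reads recovered from these values summed to between 15.12 M and 35.58 M in each library (median 23.24 M). The 15 libraries of wild type LPS and of the dEx1A groups at day 7 held under 20 M reads, and the other 30 held more. Prdm1 itself, counted over the whole gene with exon 1A not separable, averaged 6.50 ± 0.47 at day 0, 13.19 ± 0.21 in wild type TLR at day 7 and 12.46 ± 0.12 in wild type BCR at day 7 (SD, n = 3). In dEx1A cells at day 7 it averaged 11.21 ± 0.11 in LPS, 11.81 ± 0.09 in TLR and 10.31 ± 0.43 in BCR (SD, n = 3). Mature B cell genes were present throughout: summed over 12 markers, normalised reads ran from 232477 to 244646 at day 0 and from 37279 to 46654 in wild type BCR at day 10.

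**Figure D1:**
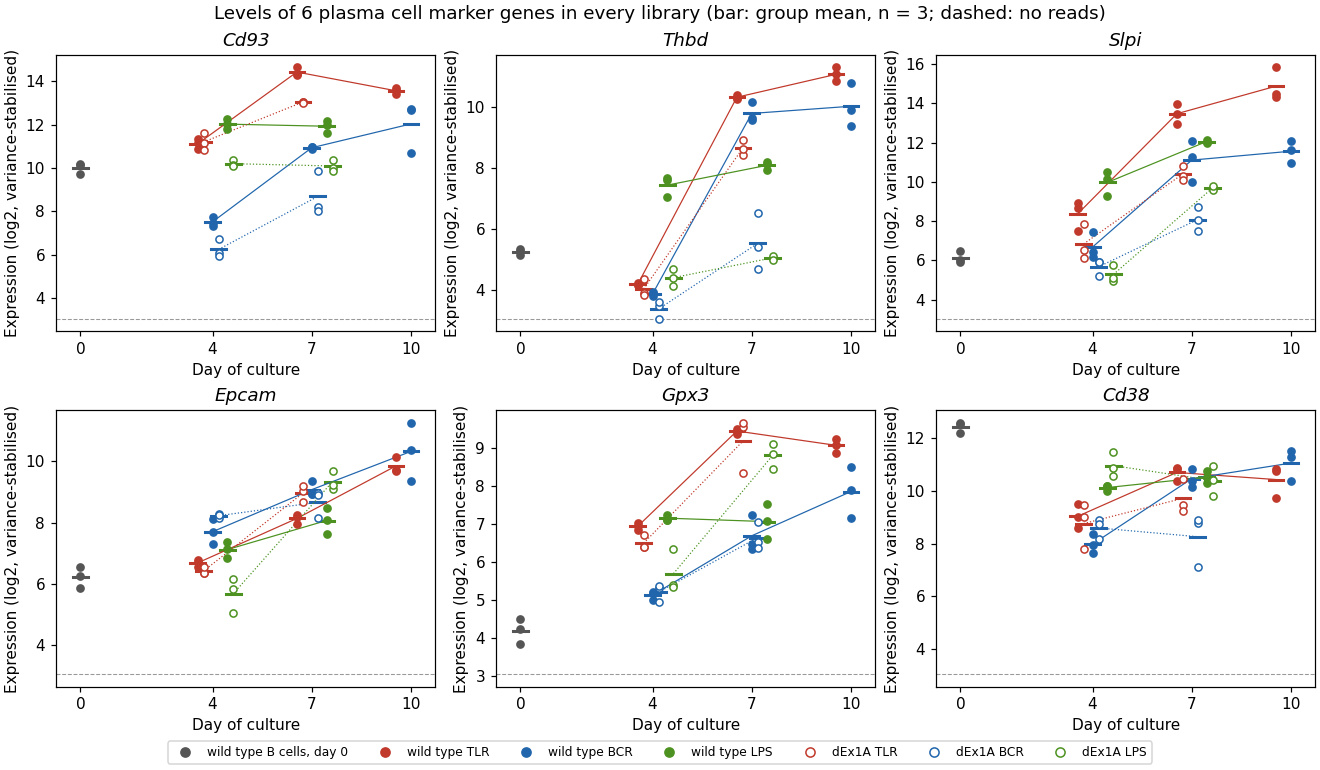
Expression (log2, variance-stabilised, y axis) of each gene in every library against day of culture (x axis), with filled points for wild type, open points for dEx1A, short bars for group means (n = 3), lines joining the means of a culture and a dashed line at the value of no reads. Cd93, Thbd and Slpi in dEx1A cultures at day 7 lie below the wild type points of the same culture, while Epcam and Gpx3 in LPS cultures at day 7 lie above them and Cd38 is highest at day 0.

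Per kilobase of the longest transcript, Slpi was the most abundant of the genes in wild type TLR cells at day 7, with a mean of 13458 normalised reads per kilobase. Cd93 followed with 3321, then Cd38 with 512, Gpx3 with 425, Thbd with 342 and Epcam with 130. On the same scale at day 0, Cd38 stood at 1710 and Cd93 at 154, against 64.2 for Slpi, 29.6 for Epcam, 6.25 for Thbd and 3.62 for Gpx3. The range of the 15 group means on the log2 scale was 9.58 for Slpi, 8.19 for Cd93, 7.72 for Thbd, 5.26 for Gpx3, 4.65 for Epcam and 4.46 for Cd38.

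The surface receptor Cd93 was detected in every day 0 library, and its level differed strongly between cultures. Its values were 10.12, 10.19 and 9.73 at day 0. In wild type TLR cultures they were 11.15, 10.86 and 11.34 at day 4, 14.64, 14.34 and 14.31 at day 7, and 13.42, 13.69 and 13.58 at day 10. In wild type BCR cultures they were 7.34, 7.47 and 7.73 at day 4, 10.88, 10.96 and 10.96 at day 7, and 12.71, 12.68 and 10.71 at day 10. The BCR day 4 libraries therefore lay under the B cells they came from and the TLR day 4 libraries above them, and at no day did the TLR and BCR ranges overlap. Wild type LPS cultures gave 12.01, 12.27 and 11.79 at day 4 and 11.62, 11.98 and 12.18 at day 7, and these ranges overlapped. In dEx1A cells the values were 10.35, 10.14 and 10.10 (LPS day 4), 10.02, 10.37 and 9.88 (LPS day 7), 11.14, 10.83 and 11.63 (TLR day 4) and 13.06, 13.06 and 13.01 (TLR day 7). The dEx1A BCR libraries gave 6.05, 5.92 and 6.74 at day 4 and 8.19, 8.0 and 9.86 at day 7. The 3 lowest group means were those of dEx1A BCR at day 7, wild type BCR at day 4 and dEx1A BCR at day 4. In the order of the 15 means, 6 of the 14 neighbouring pairs did not overlap in range, among them the 3 steps below the top group, wild type TLR at day 7.

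Cd93 was higher in TLR than in BCR cultures in all 5 comparisons, by limma with Benjamini-Hochberg adjustment over all genes. In wild type cells the log2 difference was 3.60 ± 0.35 (SE; adjusted p = 2.55e-06) at day 4, 3.50 ± 0.35 (adjusted p = 1.37e-05) at day 7 and 1.53 ± 0.35 (adjusted p = 0.0103) at day 10. As normalised reads these are 13.25-fold, 11.43-fold and 2.44-fold. In dEx1A cells it was 4.96 ± 0.29 (adjusted p = 4.45e-14) at day 4 and 4.36 ± 0.29 (adjusted p = 1.02e-12) at day 7, 38.54-fold and 17.7-fold in normalised reads. LPS cultures of dEx1A cells lay between these: below TLR by 2.95 at day 7 (difference -2.95 ± 0.29, adjusted p = 4.26e-09) and above BCR by 1.41 ± 0.29 (adjusted p = 0.000282). At day 4 the same differences were -1.0 ± 0.29 (adjusted p = 0.00583) against TLR and 3.96 ± 0.29 (adjusted p = 1.35e-12) against BCR. The wild type TLR-BCR difference changed by -1.97 ± 0.50 from day 7 to day 10, which did not pass (adjusted p = 0.184). It passed without BCR day 10 replicate 3, the lowest library, at -2.63 (adjusted p = 5e-05). The day 10 difference itself was 0.87 (adjusted p = 0.00104) without that library. Fitted on the compared groups alone, the day 10 difference lost its call (adjusted p = 0.384), as did the LPS-BCR difference at day 7 (adjusted p = 0.124). The LPS-TLR difference at day 4 lost it without dEx1A TLR day 4 replicate 3 (-0.79, adjusted p = 0.0568).

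Thbd, the neighbour of Cd93 and the thrombin cofactor, was close to silent until after day 4 in TLR and BCR cultures. Its values were 5.14, 5.32 and 5.27 at day 0, then 4.15, 4.22 and 4.14 in wild type TLR and 3.91, 3.79 and 3.87 in wild type BCR at day 4, which stand for 9 to 11 and 3 to 5 reads per library. At day 7 they were 10.32, 10.27 and 10.40 in TLR and 9.57, 9.66 and 10.16 in BCR, and at day 10 10.86, 11.08 and 11.31 in TLR and 9.92, 9.39 and 10.79 in BCR. Wild type LPS cultures had Thbd early, at 7.66, 7.62 and 7.03 at day 4 and 7.93, 8.12 and 8.21 at day 7. All 3 wild type LPS libraries of day 4 thus exceeded every wild type TLR and BCR library of that day and were under every one of day 7. In dEx1A cells LPS cultures gave 4.11, 4.68 and 4.38 at day 4 and 5.05, 5.11 and 4.97 at day 7. TLR cultures gave 3.90, 3.81 and 4.35 and then 8.42, 8.63 and 8.91. BCR cultures gave 3.45, 3.58 and 3.04 at day 4, the last standing for 0 reads, and 5.39, 4.66 and 6.51 at day 7. Of the neighbouring groups in the order of means 8 of 14 pairs did not overlap, the most for any of these genes.

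The culture difference of Thbd was small in wild type cells and large in dEx1A cells at day 7. TLR less BCR was 0.31 ± 0.25 (95% interval -0.21 to 0.84, adjusted p = 0.595, limma) at day 4 and 0.53 ± 0.25 (0.01 to 1.06, adjusted p = 0.242) at day 7 in wild type cells. It reached 1.05 ± 0.25 (adjusted p = 0.0122) at day 10, a call that ended without TLR replicate 3 (0.94, adjusted p = 0.0508), without BCR replicate 2 (0.73, adjusted p = 0.0843) and in a fit of those groups alone (adjusted p = 0.375). In dEx1A cells it was 0.66 ± 0.27 (adjusted p = 0.0905) at day 4, where BCR libraries held 0 to 2 reads. At day 7 it was 3.13 ± 0.27 (adjusted p = 1.71e-10). In normalised reads the 2 differences were 6.98-fold and 10.25-fold. The change between those days was 2.47 ± 0.38 (adjusted p = 1.85e-05). On recovered reads with limma-voom that change was 1.45 (adjusted p = 0.295). LPS cultures of dEx1A cells at day 7 were under TLR (-3.61 ± 0.27, adjusted p = 9.51e-12, 21.1-fold in normalised reads) and did not pass against BCR (-0.48 ± 0.27, interval -1.02 to 0.07, adjusted p = 0.195). That last difference was -0.91 (adjusted p = 0.00526) without dEx1A BCR day 7 replicate 2. At day 4 LPS was above BCR by 1.03 ± 0.27 (adjusted p = 0.00263) and did not pass against TLR (0.37 ± 0.27, adjusted p = 0.27).

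Slpi, the secreted elastase inhibitor, spanned the widest range. Values were 5.94, 6.01 and 6.49 at day 0. Wild type TLR cultures gave 8.69, 8.93 and 7.50 at day 4, 12.95, 13.98 and 13.47 at day 7, and 15.82, 14.45 and 14.34 at day 10. Wild type BCR cultures gave 6.45, 7.44 and 6.17, then 9.97, 11.29 and 12.06, then 12.08, 10.97 and 11.63. The TLR libraries of days 7 and 10 were the 6 highest of all 45, and replicates within a culture and day differed by up to more than 2 log2 units in BCR at day 7. Wild type LPS cultures gave 10.16, 9.26 and 10.50 at day 4 and 12.11, 12.05 and 12.00 at day 7. In dEx1A cells the values were 4.96, 5.12 and 5.79 (LPS day 4), 9.70, 9.57 and 9.81 (LPS day 7), 6.54, 7.88 and 6.11 (TLR day 4), 10.29, 10.10 and 10.82 (TLR day 7), 5.91, 5.93 and 5.19 (BCR day 4) and 8.71, 7.49 and 8.05 (BCR day 7). LPS and BCR cultures of dEx1A cells at day 4 were thus under every day 0 library, and all dEx1A libraries of day 7 were above them.

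TLR exceeded BCR for Slpi late in both genotypes. The difference was 2.36 ± 0.52 (adjusted p = 0.0116, limma) at day 7 and 3.31 ± 0.52 (adjusted p = 0.000934) at day 10 in wild type cells, 4.58-fold and 10.67-fold in normalised reads, and 2.32 ± 0.46 (adjusted p = 0.000199) at day 7 in dEx1A cells. The day 7 wild type call ended without TLR replicate 2 (2.10, adjusted p = 0.0545), without BCR replicate 1 (1.79, adjusted p = 0.0641) and in the fit of those groups alone (adjusted p = 0.0533), and the day 10 call ended in the latter (adjusted p = 0.158). At day 4 the difference was 1.69 ± 0.52 (adjusted p = 0.058) in wild type and 1.17 ± 0.46 (adjusted p = 0.0819) in dEx1A cells, each with ranges that did not overlap. Corrected for GC content and gene length, these were 1.63 (adjusted p = 0.00328) and 1.53 (adjusted p = 0.00012). LPS cultures of dEx1A cells were lower than TLR at day 4 (-1.55 ± 0.46, adjusted p = 0.00685) and higher than BCR at day 7 (1.61 ± 0.46, adjusted p = 0.00706). Those calls ended without TLR day 4 replicate 2 (-1.03, adjusted p = 0.07) and without BCR day 7 replicate 2 (1.31, adjusted p = 0.0528). LPS at day 7 was -0.71 ± 0.46 from TLR (adjusted p = 0.336), and at day 4 -0.39 ± 0.46 from BCR (adjusted p = 0.548).

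Gpx3, the secreted peroxidase, was nearly absent from resting B cells, at 4.23, 3.82 and 4.49, or 3 to 12 reads per library. Wild type TLR cultures gave 7.02, 6.95 and 6.82 at day 4, 9.37, 9.50 and 9.44 at day 7 and 9.24, 8.86 and 9.08 at day 10. Wild type BCR cultures gave 5.17, 4.99 and 5.20, then 6.34, 6.47 and 7.23, then 8.50, 7.88 and 7.15. The ranges of TLR at day 4 and BCR at day 7 overlapped. Wild type LPS cultures gave 7.10, 7.23 and 7.10 at day 4 and 6.59, 7.06 and 7.51 at day 7. In dEx1A cells the values were 5.39, 5.32 and 6.34 (LPS day 4), 8.83, 8.45 and 9.10 (LPS day 7), 6.38, 6.39 and 6.69 (TLR day 4), 9.53, 8.33 and 9.65 (TLR day 7), 5.30, 4.93 and 5.36 (BCR day 4) and 6.51, 6.35 and 7.04 (BCR day 7). The 4 highest group means, all near 9, were those of wild type TLR at days 7 and 10, dEx1A TLR at day 7 and dEx1A LPS at day 7, and their ranges overlapped from one to the next.

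Gpx3 was higher in TLR than in BCR in all 5 comparisons. The differences were 1.81 ± 0.28 (adjusted p = 0.000382, limma), 2.76 ± 0.28 (adjusted p = 1.5e-05) and 1.22 ± 0.28 (adjusted p = 0.0106) at days 4, 7 and 10 in wild type cells. In dEx1A cells they were 1.29 ± 0.29 (adjusted p = 0.00165) and 2.54 ± 0.29 (adjusted p = 4.76e-08) at days 4 and 7, or 3.33-fold and 7.06-fold in normalised reads. The dEx1A difference was 1.25 ± 0.41 larger at day 7 than at day 4 (adjusted p = 0.0359). That change lost its call in 8 of the fits that left out 1 library (1.01 to 1.20, adjusted p = 0.0585 to 0.126) and with limma-voom (0.99, adjusted p = 0.247). The wild type difference changed by -1.54 ± 0.40 from day 7 to day 10 (adjusted p = 0.193), which passed without BCR day 10 replicate 3 (-1.89, adjusted p = 0.00438). The day 10 difference itself lost its call without TLR replicate 1 (1.13, adjusted p = 0.0504) and in the fit of the compared groups alone (adjusted p = 0.328). LPS cultures of dEx1A cells were above BCR at day 7 by 2.16 ± 0.29 (adjusted p = 5.4e-07) and did not pass against TLR (-0.38 ± 0.29, adjusted p = 0.443). At day 4 LPS was under TLR (-0.80 ± 0.29, adjusted p = 0.0251), a call that ended without any of 3 single libraries (adjusted p = 0.0992 to 0.134), and 0.49 ± 0.29 above BCR (adjusted p = 0.2).

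Epcam, the adhesion protein, was the only member with lower means in TLR than in BCR at day 4 in both genotypes. Day 0 values were 6.25, 5.85 and 6.56. Wild type TLR cultures gave 6.76, 6.56 and 6.72 at day 4, 8.26, 7.95 and 8.19 at day 7 and 9.73, 9.70 and 10.13 at day 10. Wild type BCR cultures gave 7.69, 7.31 and 8.10, then 8.92, 8.94 and 9.37, then 10.37, 9.35 and 11.26. Wild type BCR libraries were above TLR libraries at days 4 and 7, and the ranges overlapped at day 10. Wild type LPS cultures gave 7.14, 6.84 and 7.37 and then 7.63, 8.09 and 8.48. In dEx1A cells the values were 5.84, 5.04 and 6.15 (LPS day 4), 9.10, 9.69 and 9.23 (LPS day 7), 6.36, 6.34 and 6.55 (TLR day 4), 9.02, 8.68 and 9.18 (TLR day 7), 8.14, 8.27 and 8.26 (BCR day 4) and 8.96, 8.14 and 8.89 (BCR day 7). All 3 dEx1A cultures stood near 9 at day 7, after starting from 5.68 in LPS to 8.22 in BCR at day 4.

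TLR less BCR for Epcam was -1.02 ± 0.34 (adjusted p = 0.0766, limma) at day 4, -0.94 ± 0.34 (adjusted p = 0.112) at day 7 and -0.47 ± 0.34 (interval -1.18 to 0.23, adjusted p = 0.39) at day 10 in wild type cells. With the replicate number as a block the day 4 difference passed (adjusted p = 0.0162). In dEx1A cells Epcam was lower in TLR at day 4 (-1.81 ± 0.26, adjusted p = 2.87e-06, 4.05-fold in normalised reads), and the difference at day 7 was 0.30 ± 0.26 (adjusted p = 0.417). The change between the days, 2.10 ± 0.36, passed (adjusted p = 8.9e-05). LPS cultures of dEx1A cells at day 4 were lower than TLR (-0.74 ± 0.26, adjusted p = 0.0189) and lower than BCR (-2.55 ± 0.26, adjusted p = 1.3e-09). At day 7 LPS was 0.68 ± 0.26 above BCR (adjusted p = 0.0435) and 0.38 ± 0.26 above TLR (adjusted p = 0.359). Of these calls, that of 0.68 ended without BCR day 7 replicate 2 (0.42, adjusted p = 0.284), without LPS day 7 replicate 2 (0.50, adjusted p = 0.205) or replicate 3 (0.73, adjusted p = 0.0633) and without a filter on low values (adjusted p = 0.0543). That of -0.74 ended without LPS day 4 replicate 2 (-0.42, adjusted p = 0.209) and without TLR day 4 replicate 3 (-0.67, adjusted p = 0.0737).

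Cd38, the NAD-consuming ectoenzyme, was highest before culture, at 12.54, 12.59 and 12.20. Wild type TLR cultures gave 9.00, 8.60 and 9.52 at day 4, 10.89, 10.38 and 10.85 at day 7 and 9.73, 10.75 and 10.83 at day 10. Wild type BCR cultures gave 7.93, 7.66 and 8.36, then 10.85, 10.16 and 10.40, then 11.29, 11.52 and 10.38. Every cultured library was below every day 0 library, and in wild type TLR and BCR cultures days 7 and 10 were above day 4. Wild type LPS cultures gave 10.19, 10.19 and 10.02 and then 10.75, 10.52 and 10.32. In dEx1A cells the values were 11.48, 10.56 and 10.86 (LPS day 4), 10.97, 9.80 and 10.43 (LPS day 7), 9.47, 7.79 and 9.03 (TLR day 4), 10.47, 9.47 and 9.23 (TLR day 7), 8.89, 8.16 and 8.74 (BCR day 4) and 8.77, 7.12 and 8.90 (BCR day 7). Apart from day 0, which stood alone at the top, all 13 other neighbouring pairs in the order of means overlapped.

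In wild type cells no TLR-BCR difference of Cd38 passed: it was 1.06 ± 0.33 (adjusted p = 0.0591, limma) at day 4, 0.24 ± 0.33 (interval -0.45 to 0.93, adjusted p = 0.733) at day 7 and -0.63 ± 0.33 (interval -1.32 to 0.06, adjusted p = 0.221) at day 10. Corrected for GC content and gene length, the day 4 difference passed (1.11, adjusted p = 0.00224), as did that of day 10 without BCR replicate 3 (-0.97, adjusted p = 0.0343). In dEx1A cells it was 0.17 ± 0.40 (adjusted p = 0.835) at day 4 and 1.46 ± 0.40 (adjusted p = 0.00512) at day 7. The latter ended without TLR replicate 1 (1.09, adjusted p = 0.0587), without BCR replicate 2 (0.89, adjusted p = 0.0894) and in the fit of those groups alone (adjusted p = 0.149). LPS cultures of dEx1A cells held more Cd38 than both others at day 4, by 2.20 ± 0.40 over TLR (adjusted p = 4.67e-05) and 2.37 ± 0.40 over BCR (adjusted p = 1.53e-05). At day 7 they held more than BCR by 2.14 ± 0.40 (adjusted p = 8.28e-05), and the difference from TLR was 0.68 ± 0.40 (adjusted p = 0.28).

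**Figure D2:**
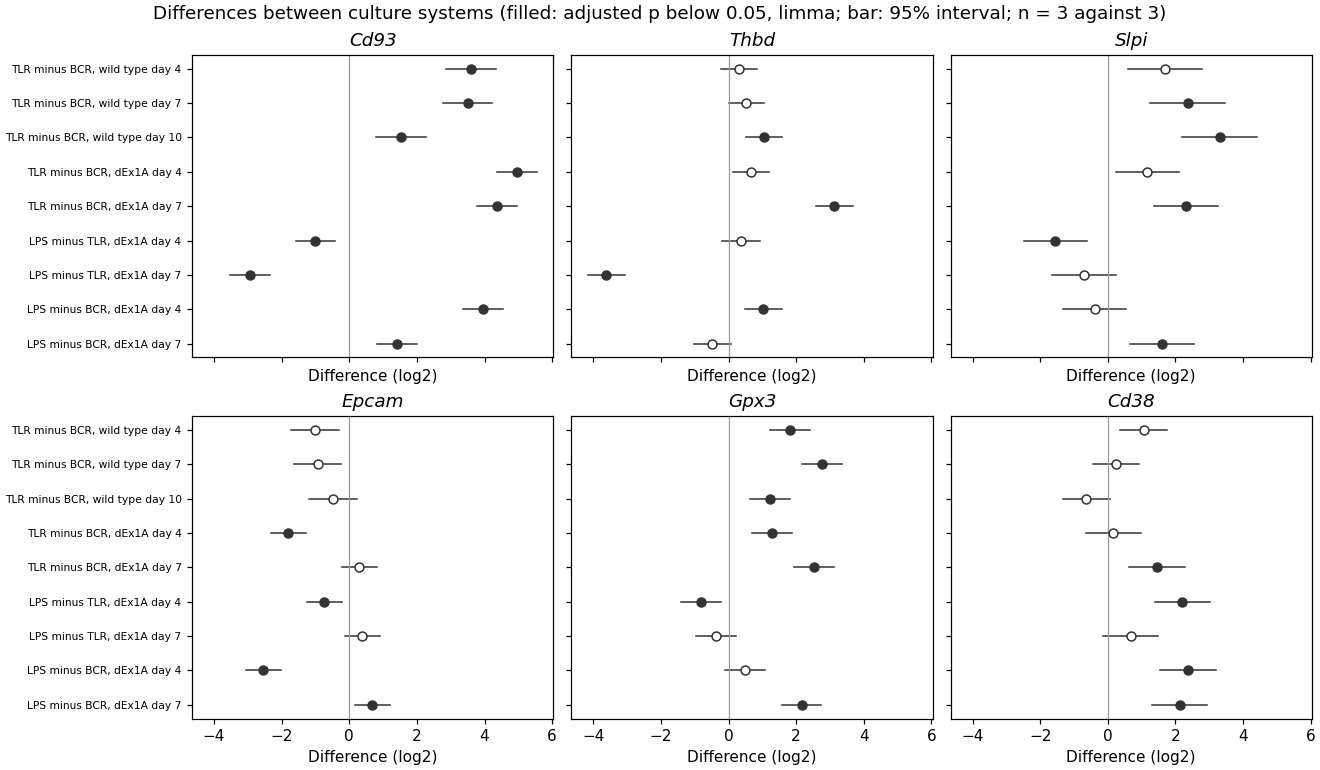
Log2 difference between culture systems for each gene (x axis) in the 9 comparisons (y axis), n = 3 libraries against 3, with bars for the 95% interval and filled points where the adjusted p from limma was below 0.05. Cd93 is filled in all 9 comparisons and Gpx3 in 7, TLR less BCR is positive for both at every day, and Epcam points left at day 4 and lies near 0 at day 7 in dEx1A cells.

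Over all 9 comparisons, 33 of 54 tests of these genes passed. TLR against BCR gave 2 of 6 genes at day 4 in wild type cells, where 7.57% of all genes passed, 3 at day 7 (6.27% of all genes) and 4 at day 10 (14.4%). In dEx1A cells it gave 3 at day 4 (16.7%) and 5 at day 7 (31.5%). LPS against TLR gave 5 at day 4 (45.3%) and 2 at day 7 (17.4%), and LPS against BCR gave 4 at day 4 (36% of all genes) and 5 at day 7 (29.8%). The 3 dEx1A cultures were each used in 2 of these comparisons, so the differences are not independent of one another. Of 18 changes of a TLR-BCR difference between days 3 passed, all in dEx1A cells, where 15.8% of all genes passed. Such a change also compares the steps between days of 2 cultures, and steps between days entered the choice of the genes. In wild type cells no change of these genes passed by limma or by limma-voom, against 1.69% of all genes from day 4 to day 7 and 0.0667% from day 7 to day 10, and the unadjusted p was below 0.05 for Gpx3 in the first and for Cd93 and Gpx3 in the second.

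Across days, as values that entered the choice of the genes, wild type TLR cells at day 7 exceeded day 4 by 6.16 for Thbd, 5.09 for Slpi, 3.31 for Cd93, 2.51 for Gpx3, 1.67 for Cd38 and 1.45 for Epcam. In BCR cells the same step was 5.94, 4.42, 3.42, 1.56, 2.49 and 1.38 in that order. In wild type LPS cells it was 0.65, 2.08, -0.10, -0.09, 0.40 and 0.95. Thbd in TLR cells thus held 240.42-fold more normalised reads at day 7 than at day 4, where a library held 9 to 11 reads. From day 7 to day 10, Epcam differed by 1.72 in TLR and 1.25 in BCR, and Slpi by 1.40 and 0.45. Over that step Cd93 and Gpx3 went in different directions, at -0.87 and -0.38 in TLR against 1.10 and 1.16 in BCR. Of all genes, 36.3% passed from day 4 to day 7 in TLR, 30.5% in BCR and 8.4% in LPS, and 8.2% in TLR and 16.7% in BCR from day 7 to day 10.

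Between genotypes, the LPS cultures of day 7 are the pair matched in labelled sex and age and in the depth set. There dEx1A less wild type was -3.04 for Thbd, -2.36 for Slpi and -1.84 for Cd93, with no overlap between the libraries. It was 1.74 for Gpx3 and 1.27 for Epcam, again without overlap and in the other direction, and -0.13 for Cd38 with overlapping libraries. At day 4 in LPS, where the depth sets differ, it was -4.68 for Slpi, -3.05 for Thbd, -1.83 for Cd93, -1.46 for Gpx3, -1.44 for Epcam and 0.83 for Cd38. So Gpx3 and Epcam lay on opposite sides of wild type at the 2 days. In TLR and BCR cultures genotype and the labelled sex and age cannot be told apart, and at day 7 nor can genotype and the depth set. TLR cultures gave -3.06 for Slpi, -1.68 for Thbd, -1.39 for Cd93, -0.98 for Cd38, -0.27 for Gpx3 and 0.83 for Epcam at day 7. BCR cultures gave -4.28 for Thbd, -3.02 for Slpi, -2.25 for Cd93, -2.21 for Cd38, -0.41 for Epcam and -0.05 for Gpx3. At day 4 the differences were between -1.53 (Slpi) and 0.08 (Cd93) in TLR and between -1.28 (Cd93) and 0.61 (Cd38) in BCR. Of all genes, 7.08% passed between the genotypes in LPS at day 7 and 24.4% at day 4.

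**Figure D3:**
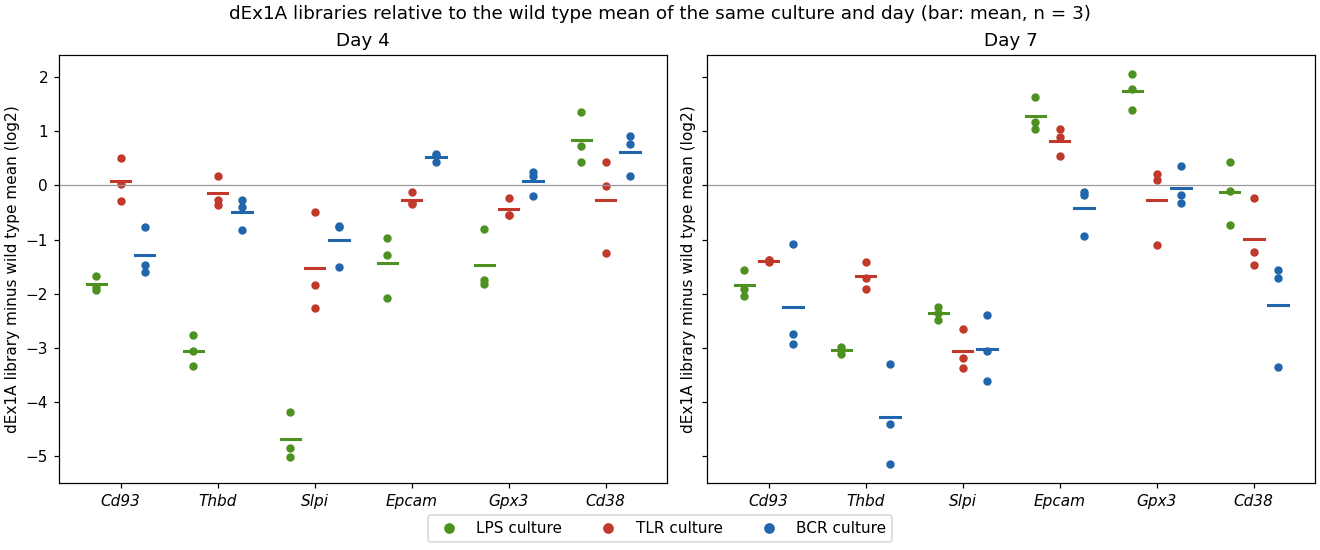
Each dEx1A library less the mean of the wild type libraries of the same culture and day (log2, y axis) for the 6 genes (x axis) at day 4 and day 7, with points for libraries and bars for means (n = 3). At day 7 Cd93, Thbd and Slpi are below 0 in all 3 cultures, and in LPS the Epcam and Gpx3 points are all above 0 where those of day 4 are all below.

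Other plasma cell genes gave a setting for these values. A list of 30, all tested, held transcription factors, receptors and parts of the secretory path. TLR exceeded BCR for 2 and was lower for 1 of them at day 4 (4.3% and 3.27% of all genes), for 6 and 0 at day 7 (3.77% and 2.5%), and for 9 and 2 at day 10 (4.29% and 10.1%) in wild type cells, with median differences of 0.28, 0.68 and 0.66 against -0.01, -0.04 and -0.04 over all genes. The costimulatory receptor Cd28 was higher by 1.83 ± 0.49 (adjusted p = 0.0276, limma) at day 4 and 2.67 ± 0.49 (adjusted p = 0.00366) at day 7. At day 10 its difference was -1.34 ± 0.49 (adjusted p = 0.0785), and the change from day 7 to day 10, -4.01 ± 0.70, passed (adjusted p = 0.038), the one listed gene called there. Txndc5, a protein disulfide isomerase, was higher by 1.35 ± 0.28 (adjusted p = 0.00617) at day 10. Ern1, the sensor of the unfolded protein response, was higher by 1.15 ± 0.27 at day 7 (adjusted p = 0.0164) and 1.30 ± 0.27 at day 10 (adjusted p = 0.00598). Cav1 was lower by 1.80 at day 10 (-1.80 ± 0.40, adjusted p = 0.00821). In dEx1A cells TLR exceeded BCR for 14 and was lower for 2 at day 4 (7.39% and 9.28% of all genes), and for 27 and 1 at day 7 (13.2% and 18.3%). The medians were 0.49 and 1.53, against -0.05 and -0.06 over all genes. At day 7 Cd28 was higher by 4.16 ± 0.39 (adjusted p = 1.22e-09), Txndc5 by 2.96 ± 0.24 (adjusted p = 5.04e-11), Jchain, which joins IgM and IgA, by 3.14 ± 0.41 (adjusted p = 4.58e-07) and Tnfrsf17, the APRIL receptor BCMA, by 2.77 ± 0.38 (adjusted p = 1.14e-06). Prdm1 was itself higher in TLR than in BCR at day 4, by 1.90 ± 0.28 (adjusted p = 6.02e-06). LPS against BCR gave 18 higher and 4 lower at day 4 (14.6% and 21.3% of all genes) and 23 and 1 at day 7 (12.5% and 17.3%). LPS against TLR gave 11 and 8 at day 4 (21.1% and 24.2%) and 2 and 7 at day 7 (7.79% and 9.57%). From day 4 to day 7 in dEx1A cells, the TLR-BCR difference moved up for 16 of the listed genes and down for none (7.31% and 8.49% of all genes), with Tnfrsf17 at 3.06 ± 0.54 (adjusted p = 0.000134). In wild type cells it changed for Ell2 alone over those days (2.02 ± 0.40, adjusted p = 0.0114; 0.862% of all genes higher and 0.826% lower).

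By day, 25 of the listed genes rose and 1 fell in wild type TLR cells from day 4 to day 7, and 23 rose and 1 fell in BCR cells (in TLR 17.7% of all genes rose and 18.6% fell, in BCR 15.3% and 15.2%), with medians of 2.38 and 2.16 against -0.06 and 0.00 over all genes. Jchain rose by 7.89 ± 0.41 (adjusted p = 1.66e-10, limma) in TLR and 7.03 ± 0.41 (adjusted p = 7.42e-10) in BCR. From day 7 to day 10 3 rose and 7 fell in TLR (3.51% and 4.69% of all genes) and 4 rose and 6 fell in BCR (10.8% and 5.91%). The largest change in both was that of the surface protein Ly6c2, a rise of 3.63 ± 0.25 (adjusted p = 2.88e-07) and 3.19 ± 0.25 (adjusted p = 1.37e-06). In LPS cultures 8 rose and none fell from day 4 to day 7 (4.75% and 3.65% of all genes). Between genotypes, 23 were lower and 1 higher in dEx1A LPS cells at day 4 (11.8% and 12.6% of all genes), and 2 lower and 5 higher at day 7 (3.78% and 3.3%), with medians of -1.31 and 0.05. Prg2, an eosinophil granule protein also known from plasma cells, was lower by 4.47 at day 4 (-4.47 ± 0.33, adjusted p = 8.91e-12) and by 4.38 at day 7 (-4.38 ± 0.33, adjusted p = 1.33e-11). Prdm1 was lower by 2.68 (-2.68 ± 0.28, adjusted p = 1.86e-08) and by 1.40 (-1.40 ± 0.28, adjusted p = 0.000949). It carries the deletion itself and is counted among the listed genes, so its own difference says nothing about the others. Cd28 was higher by 2.11 ± 0.39 (adjusted p = 0.000375) at day 7. In TLR 10 were lower and 6 higher at day 7 (28.7% and 26.2% of all genes), and in BCR 23 lower and 1 higher (25% and 25.8%). At day 4, 1 was higher in TLR (4.08%; 3.14% of all genes were lower) and 2 were lower in BCR (0.669%; 1.19% of all genes were higher). Those 2 were Jchain and Prdm1.

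Partners of these proteins were measured too. Of the C-type lectin relatives of CD93 and thrombomodulin, Clec14a and Cd248 had group means under 5 everywhere. In the protein C and thrombin path, Plaur, the urokinase receptor, averaged 9.78 ± 0.53 at day 0 and 4.88 ± 0.59 in wild type TLR at day 4, and F2rl1, a protease-activated receptor, 6.79 ± 0.13 in wild type TLR at day 7. F2rl1 was higher in TLR than in BCR at day 7 by 0.86 ± 0.25 in wild type (adjusted p = 0.0457, limma) and 1.82 ± 0.21 in dEx1A cells (adjusted p = 6.1e-08), alongside Thbd in the latter. Of the 7 tested genes of that path, 2 were higher and 2 lower in TLR than in BCR in dEx1A cells at day 7, where 13.2% of all genes were higher and 18.3% lower.

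Among protease inhibitors and targets of SLPI, Cst3, the inhibitor cystatin C, averaged 8.74 ± 0.31 in wild type TLR at day 4 and 10.92 ± 0.29 at day 7, a rise of 2.18 ± 0.26 (adjusted p = 2.83e-06, limma). Serpina3g averaged 9.84 ± 0.18 and Serpinb9, the granzyme B inhibitor, 8.16 ± 0.06 in wild type TLR at day 7. In TLR against BCR in dEx1A cells at day 7, 7 of 11 of these genes were lower and none higher, where 18.3% of all genes were lower and 13.2% higher. There 15 myeloid markers summed to 3742 to 5120 normalised reads in TLR and 3240 to 32107 in BCR libraries. Their part in that count was not tested. Around EpCAM, its partner gene Cd44 was abundant in all cultures (12.13 to 14.33 as group means) and was higher in TLR than BCR by 0.53 ± 0.15 in wild type cells at day 7 (adjusted p = 0.0398). The tetraspanin gene Cd9 was lower in TLR than in BCR in dEx1A cells at day 7 (-0.74 ± 0.19, adjusted p = 0.0028), and Adam17, a sheddase, stood at 10.41 to 11.41 as group means.

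Of the glutathione enzymes, Gpx1 averaged 9.63 ± 0.42 and Gpx4 9.44 ± 0.48 in wild type TLR at day 7, and neither passed between TLR and BCR there (-0.72 ± 0.55 and 0.10 ± 0.39, adjusted p = 0.507 and 0.912, limma). Gclc, of glutathione synthesis, differed by 0.07 ± 0.13 (adjusted p = 0.819). Between TLR and BCR, none of the 10 genes in this list passed by limma in wild type cells at day 4 or day 7 (7.57% and 6.27% of all genes), and 4 were lower in TLR at day 10 (10.1% of all genes were lower). In dEx1A cells 2 were higher and 1 lower at day 4 (7.39% and 9.28%), and 1 was higher and 3 lower at day 7 (13.2% and 18.3%). Of the genes that make or use NAD, Nampt, which salvages it, fell by 1.43 in wild type TLR from day 4 to day 7 (-1.43 ± 0.31, adjusted p = 0.00125). Parp1 and Nadk, at 11.90 ± 0.24 and 9.77 ± 0.13 in wild type TLR at day 7, did not pass between TLR and BCR there (adjusted p = 0.817 and 0.172).

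Genes whose 15 group means followed each member most closely, among 6794 with a level of 6 or more and a range of at least 2, were named by Pearson's r as a description only, since groups of one culture or depth set are not independent points. For Cd93 they were Spo11 (r = 0.916), Tmem100 (0.906) and Cytip (0.903). For Thbd they were Gm15513 (r = 0.959), Ccpg1 (0.951), an ER-phagy receptor, and Neat1 (0.947), a nuclear RNA. For Slpi they were Slc3a2 (r = 0.962), the heavy chain of an amino acid transporter, C030037D09Rik (0.957) and Saraf (0.951). For Epcam they were Apba1 (r = 0.894), Junos (0.885) and Cd9 (0.878), for Gpx3 Mageh1 (r = 0.951), Wipi1 (0.950) and Prss16 (0.940), and for Cd38 Grap2 (r = 0.975), AB124611 (0.954) and Tgfbr2 (0.952). By Spearman's rho 6 of these 18 stayed among the closest 3. Between members, Thbd and Slpi had the highest r over the 15 means (0.91), Cd93 reached 0.78 with each of them, and Cd38 and Epcam had -0.01.

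Markers of other cells moved with some of these results. Lyz2, the lysozyme gene of myeloid cells, was at 16.66, 16.39 and 13.50 in wild type BCR at day 10, at 9.44, 14.92 and 12.08 in TLR at day 10, at 10.93, 11.86 and 8.61 in BCR and 5.51, 9.52 and 5.96 in TLR at day 7. Summed over all 15 myeloid markers, each of which had reads in every one of these groups, normalised reads ran from 20454 to 212616 in BCR at day 10, 2671 to 55411 in TLR at day 10, 2965 to 9260 in BCR at day 7 and 1000 to 2316 in TLR at day 7. At day 0 the sum was 2442 to 3146, in libraries with 1116 to 1481 reads of Cd93, and in wild type TLR at day 4 it was 409 to 522. In BCR at day 10, Cd93 was high in the 2 libraries with most Lyz2 (12.71 and 12.68) and lower in the other (10.71), Cd38 and Gpx3 were also higher in those 2, and Thbd and Epcam were lower. Their part in the results was not tested. Leaving out those 2 libraries, a choice made after the values were seen, kept only BCR replicate 3 at day 10, so sizes alone are given. The day 10 TLR-BCR difference was then 2.85 for Cd93, 1.91 for Gpx3, 0.29 for Thbd and -1.41 for Epcam. In dEx1A BCR at day 7, the library with most Lyz2 (11.10, 6.28 and 12.78 in replicates 1 to 3) was also the highest in Cd93 and Thbd.

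**Figure D4:**
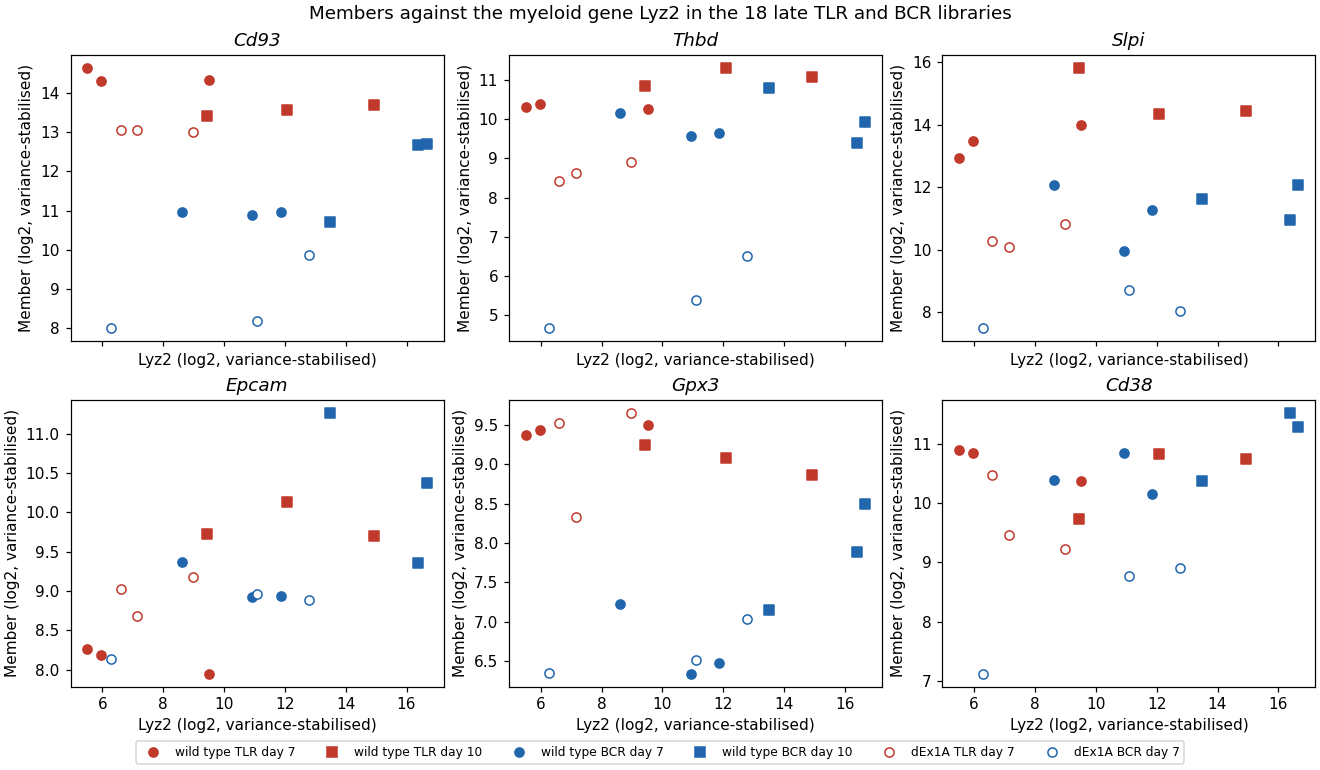
Level of each gene (log2, variance-stabilised, y axis) against Lyz2 (same scale, x axis) in the 18 TLR and BCR libraries of days 7 and 10, with red for TLR, blue for BCR, squares for day 10 and open circles for dEx1A. The wild type BCR squares with Lyz2 at 16.66 and 16.39 have Cd93 near 12.7 and the third square, at 13.50, has 10.71. TLR points lie above BCR points in Cd93, and no TLR point exceeds 14.92 in Lyz2.

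Fibroblast markers, which L cell feeders carry, summed to 1633 to 3361 normalised reads over 13 genes in wild type TLR and 2652 to 4910 in BCR at day 4, to 4971 to 7026 in dEx1A BCR at day 7 against 619 to 692 in dEx1A TLR, and to 6 to 30 in LPS groups. In dEx1A BCR cultures the sum was 3346 to 4573 at day 4, under that of day 7. Sparc went the other way there, from 370 to 1003 reads at day 4 to 70 to 114 at day 7. Col1a1 did so too, from 45 to 172 reads to 17 to 35, so the day 7 sum does not follow these feeder genes. The part of fibroblast markers in the TLR-BCR and LPS differences was not tested. Endothelial cells carry Cd93 and Thbd. The 8 endothelial markers in the tables summed to 155 to 6137 normalised reads, highest at day 0, with Pecam1, which B cells also express, at 6580 to 8251 reads there. Cdh5 had 2 to 31 reads in any library. In wild type BCR at day 10 Vwf had 424, 238 and 23 reads and Kdr 113, 133 and 9, so both were higher in the libraries with high Cd93. Cdh5, at 15, 12 and 18 reads in that group, was not. In dEx1A BCR at day 7 Vwf had 30, 14 and 87 reads and Cdh5 11, 6 and 6. The sum was 966, 920 and 302 in the former group and 464, 250 and 531 in the latter. Their part in the Cd93 and Thbd differences was not tested. For Epcam, the epithelial keratin Krt8 had no reads at day 0 and in 5 of 6 wild type and all 6 dEx1A LPS libraries, and all 5 epithelial markers in the tables summed to at most 220 normalised reads, in dEx1A BCR at day 7, where Cdh1 held 92 to 140 reads. Krt8 reached 152 reads in dEx1A BCR at day 4, and the part of these markers in the Epcam differences was not tested. Erythroid and platelet markers summed to 35 to 9298 and T and NK cell markers to 10 to 2793 normalised reads, highest in wild type BCR at day 10 and dEx1A BCR at day 7, respectively.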

How the data were processed

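RNA of 45 libraries was made into stranded total RNA libraries (TruSeq) and sequenced as single reads of 76 bases, per the labels' protocols. The submitters' processing notes list DESeq2 1.22.2, R 3.5.1, RSEM 1.3.0, STAR 2.6.0c, Trim Galore 0.6.0 and FastQC 0.11.8, with builds GRCh38.p12, GRCm38.p6 and mm10. Not given in the sources used here were their roles. The authors deposited log2 variance-stabilised values in 2 tables of 28196 genes, with 21 and 39 libraries, of which 15 are in both with identical values. Reads were recovered by inverting the transformation (floor 3.045). Under 20 reads, 94.6 to 100.0% per library were whole within 0.1. Normalised reads are these divided by size factors. Differences of genes with few reads are understated on the log2 scale.

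Genes were kept at 1 or more above the floor (3.04) in at least 3 libraries, leaving 19497 and 20331, and all 6 members passed. Cnksr3 was left out for 1 value under the floor. Group means of a table were fitted together with limma 3.58.1 in R 4.3.3 (empirical Bayes with a trend, 14 and 26 residual degrees of freedom, two-sided, Benjamini-Hochberg over all genes kept, threshold 0.05). Wild type TLR and BCR comparisons used the smaller table and all others the larger. The script was checked on simulated data. Members and gene lists were chosen with earlier results of these data known. Named list genes were taken from the 4 called genes with the largest absolute differences in each comparison. Partner genes were the 3 with the highest mean per list, of which 1 is not reported here. Genes of like pattern were the 3 with the highest Pearson r, without members and immunoglobulin segments. GENCODE M21 identifiers matched 28187 genes.

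Replicate numbers come from the titles. Same-numbered TLR and BCR libraries deviated together from their group means in wild type at day 4 (r = 0.13, 0.77 and 0.82) and day 10 (r = 0.14, 0.44 and 0.33) and in dEx1A at day 4 (r = 0.26, 0.64 and 0.50), and were taken as paired there. In the other comparisons at least 1 pair did not exceed 0.1. The main fits held no replicate term in any comparison, so pairing entered only through the replicate block. Alternatives were the replicate block, a GC and length correction, both together, other filters, median centring, no trend, limma-voom on recovered reads, only the compared groups, and leaving out each library. Leaving out both wild type BCR day 10 libraries of highest Lyz2 was chosen after seeing the data.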

Additional observations from a re-analysis of the deposited data

Results flagged for a closer look

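For 3 of the 6 genes the difference between TLR and BCR cultures of dEx1A cells changed between day 4 and day 7, by the limma test of the change itself. Of all genes, 15.8% passed that test. The change is also the TLR step from day 4 to day 7 less the BCR step. Differences between days entered the choice of the genes, so this test is not independent of it. For Thbd the change was 2.47 ± 0.38 (adjusted p = 1.85e-05), from a difference of 0.66 at day 4 to 3.13 at day 7. In normalised reads these differences were 6.98-fold and 10.25-fold. BCR libraries held 0 to 2 reads of Thbd at day 4, and the log2 scale understates differences at so few reads. For Epcam it was 2.10 ± 0.36 (adjusted p = 8.9e-05), from -1.81 to 0.30. For Gpx3 it was 1.25 ± 0.41 (adjusted p = 0.0359), from 1.29 to 2.54. The Thbd and Gpx3 changes did not pass with limma-voom (adjusted p = 0.295 and 0.247). The Gpx3 change also did not pass by limma with the GC and length correction (adjusted p = 0.162) or on the compared groups alone (adjusted p = 0.129). It lost its call in several fits that left out 1 library as well.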

How the results depend on the processing

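No difference of a member changed sign when it passed. A result here is 1 gene in 1 comparison under 1 setting, so several come from the same fit. Of 540 results from fits that left out 1 library, 505 kept their side of the threshold, 26 lost a call and 9 gained one. Of 660 results from the other settings, 617 kept it, 17 lost a call and 26 gained one. Of the latter, 12 came from the setting that kept 1 BCR library at day 10. Where counts moved, the cause was not tested. A fit of the compared groups alone has fewer degrees of freedom and another estimate of the spread. For wild type TLR against BCR its SE was 0.55 in place of 0.35 for Cd93 at day 10. For Epcam at day 7 it was 0.17 in place of 0.34. Members called in such fits were 0 in place of 4 for wild type TLR against BCR at day 10, 2 in place of 5 for dEx1A LPS against TLR at day 4 and 3 in place of 5 for LPS against BCR at day 7. Listed plasma cell genes called were 11 in place of 6 (wild type TLR against BCR, day 7), 0 in place of 11 (day 10), 8 in place of 16 (dEx1A, day 4), 11 in place of 19 (LPS against TLR, day 4), 6 in place of 10 (TLR, day 7 to 10), 0 in place of 10 (BCR, day 7 to 10), 4 in place of 7 (genotype, LPS day 7), 0 in place of 1 (TLR day 4) and 0 in place of 2 (BCR day 4). With the GC and length correction, members called were 4 in place of 2 (wild type TLR against BCR, day 4) and 5 in place of 3 (dEx1A, day 4), the latter also 5 with median centring. Listed genes called were 7 in place of 3 (wild type day 4), 10 in place of 6 (day 7), 19 in place of 11 (day 10), 3 in place of 1 (genotype, TLR day 4) and 7 in place of 2 (BCR day 4). Limma-voom gave 1 member in place of 3 for the dEx1A change between days, and 5 listed genes in place of 8 (wild type LPS, day 4 to 7) and 2 in place of 1 (genotype, TLR day 4), the latter 3 with a stricter filter. Leaving out both BCR day 10 libraries of highest Lyz2 kept 1 BCR library at day 10, so its count of listed genes is not given.

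With the replicate block, listed genes called were 10 in place of 6 (wild type TLR against BCR, day 7), 4 in place of 7 (genotype, LPS day 7) and 0 in place of 1 (genotype, TLR day 4). Where the libraries share only a number, the block gave Epcam a call at day 7 in wild type cells (-0.94, adjusted p = 0.0293) and the dEx1A change of Cd38 one (1.29, adjusted p = 0.0149). Where they were taken as paired, it changed the call of Epcam at day 4 and no other member. With block and GC correction together, members called were 5 in place of 2 (wild type day 4), 5 in place of 3 (dEx1A day 4), 1 in place of 0 for each wild type change between days, and listed genes 7 in place of 3 (day 4), 12 in place of 6 (day 7), 21 in place of 11 (day 10), 15 in place of 9 (LPS against TLR, day 7) and 13 in place of 8 (wild type LPS, day 4 to 7).

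Leaving out 1 library at a time gave 2 to 5 members for LPS against TLR at day 4 and 0 to 3 for the wild type change from day 7 to day 10. For listed genes it gave 0 to 4 (wild type TLR against BCR, day 4), 2 to 6 (day 7), 2 to 22 (day 10), 5 to 8 (TLR, day 7 to 10), 6 to 15 (BCR, day 7 to 10), 3 to 8 (wild type LPS), 0 to 5 (genotype, TLR day 4) and 1 to 4 (BCR day 4). Median centring shifted all genes by 0.20 (wild type TLR against BCR, day 10), 0.21 (wild type, day 7 less day 4; LPS against BCR, day 7), 0.13 and 0.12 (dEx1A TLR against BCR, days 4 and 7) and 0.12 (wild type, day 7). Few reads limit Thbd at day 4, with 0 to 2 in dEx1A BCR libraries of 23.24 M to 28.88 M reads in all.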
